A study of Saccharomyces cerevisiae S288C with 32 samples.

Results

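The data described are the response to azetidine-2-carboxylic acid (AZC) of budding yeast lacking NOT5, read from 8 of the 32 messenger RNA libraries of a study of nascent chain misfolding, translation and mRNA decay in Saccharomyces cerevisiae. The 8 libraries were chosen by genotype, treatment and flowcell: 4 of not5 cells given AZC and 4 of not5 cells given vehicle, all sequenced on flowcell 2. The study also holds wild type with and without AZC on both flowcells and zuo1 with and without AZC on flowcell 1, in groups of 4. All groups are labelled S288C. Cells were grown in YPD at room temperature from an OD600 of 0.1 to 0.4 and then received AZC at 2 mg/mL or the same volume of sterile water for 45 minutes. Each AZC library was compared with the not5 vehicle library of its own replicate number, 1 to 4, so that the comparison is within 4 pairs. The table holds 6085 gene records, of which 5829 passed the filter on low counts and were tested.

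Not5 is a subunit of Ccr4-Not, the main cytoplasmic deadenylase of yeast. The complex shortens poly(A) tails ahead of mRNA decay, and Not5 is known to dock on ribosomes that are slow at their next codon. AZC is a proline analogue that is charged onto proline tRNA and built into new proteins, which then fold poorly. In wild-type yeast this is known to activate Hsf1, the transcription factor of cytosolic chaperone genes, and to lower the output of ribosomal genes. The general stress genes driven by Msn2 and Msn4 and the ribosome biogenesis genes usually move in opposite directions when growth slows.

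NOT5 had 0 counts in each of the 8 not5 libraries and 10967 to 17767 counts in the 8 wild-type libraries of flowcell 2. LEU2, a leucine biosynthesis gene, had 1378 to 2311 counts in not5 and 0 in wild type, so that LEU2 and the not5 genotype cannot be told apart in any comparison of the genotypes. Both treatments within not5 carry it. The vehicle libraries of not5 held 72532368 to 97010130 counts and the AZC libraries 58229383 to 70791961. Ribosomal RNA records took 3.95% to 4.84% of the counts in numbers 1 to 3, and 14.9% (vehicle) and 13.1% (AZC) in number 4. The AZC minus vehicle difference averaged −0.717 ± 0.784 percentage points (SD, n = 4 pairs), and its exact two-sided sign-flip permutation p was the smallest that 4 pairs allow, which is above 0.05. Of 7 genes specific to a-type cells, MFA1 and MFA2 were listed at 0 and the summed level was 1206 to 1542 CPM (counts scaled to a library total of 1e+06) in vehicle and 1071 to 1436 in AZC. The 4 genes specific to alpha-type cells summed to 44.03 to 56.5 and 43.3 to 54.9 CPM, and 10 sporulation genes to 105 to 128 and 107 to 132 CPM. These marker sums use raw library totals, while the CPM of single genes below also use a scaling factor for each library (TMM). No pair of libraries within a group agreed within sampling noise. The labels call the replicates biological but do not say what a shared number stands for, so a p-value here speaks of the spread of these libraries alone. Poly(A) RNA was selected, so in a deadenylase mutant a change in tail length and a change in RNA amount cannot be told apart. Levels are shares of a library, so a change in total mRNA per cell is not seen.

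AZC raised 317 genes and lowered 283 in not5, which is 10.3% of those tested (5.44% and 4.86%), by edgeR's quasi-likelihood test with the replicate number as a block and a Benjamini-Hochberg adjusted p under 0.05. Heat shock chaperones and Msn2/Msn4 stress genes were among those that rose, and ribosome assembly genes among those that fell. The changes were small. The median log2 fold change was 0.19 among the genes that rose, at most 0.98, and −0.14 among those that fell, at most −0.59 in size, and no called gene reached a 2-fold change (0 of 5829 tested). Past 0.5 on the log2 scale were 15 of the genes that rose and 1 of those that fell. Of the genes called, 315 were higher in all 4 pairs and 281 lower in all 4, against 17.1% and 17.3% of all genes tested. The calls come from a paired test on these same pairs, so this agreement is largely built in and is no separate support. The counts rest on the pairing: dropping the replicate number from the model left 0 genes, and an unadjusted p under 0.05 in 39 genes against 1560 with it. They also rest on all 4 pairs, with 238 genes called without number 2 and 242 without number 4, and 459 and 467 without numbers 1 and 3. In the 4 fits that each left out 1 number, 161 genes were called every time, 112 higher and 49 lower. A fit on all 16 libraries of flowcell 2, not5 and wild type together, called 76 genes for AZC in not5, 75 higher and 1 lower.

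**Figure D1:**
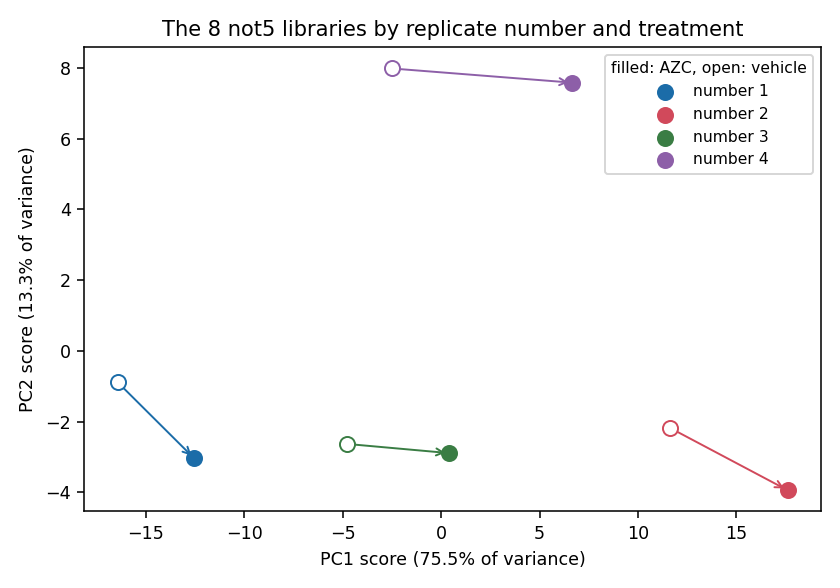
Scores of the 8 not5 libraries on the first principal components of log2 CPM over the 5224 genes averaging 10 CPM or more. PC1 (x axis, 75.5% of variance) spreads the replicate numbers, PC2 (y axis, 13.3%) sets number 4 apart, and each arrow runs from the vehicle to the AZC library of 1 number, toward higher PC1 in 4 of 4 pairs.

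The promoter windows of 6 genes that rose or fell are shown because they hold the binding motif of the factor each gene is known for. Each is the 300 bases that begin 400 bases before the coding start in the RefSeq R64 assembly, 5′ to 3′ on the gene's strand. Capitals mark the motif searched on both strands. For Hsf1 the motif is a pair of heat shock sites (GAANNTTC or TTCNNGAA, which overlap each other in these windows), shown for BTN2 (chrVII:772054-772353, plus strand) and HSP42 (chrIV:806221-806520, plus strand). For Msn2 and Msn4 it is the stress response element AGGGG, shown for CTT1 (chrVII:654234-654533, plus strand). For Put3, the activator of proline use, it is CGGNNNNNNNNNNCCG, shown for PUT1 (chrXII:424786-425085, plus strand) and PUT2 (chrVIII:181577-181876, plus strand), whose window overlaps the gene YHR036W. For ribosome biogenesis genes it is the PAC element GATGAG, shown for NOP58 (chrXV:898461-898760, minus strand).
BTN2: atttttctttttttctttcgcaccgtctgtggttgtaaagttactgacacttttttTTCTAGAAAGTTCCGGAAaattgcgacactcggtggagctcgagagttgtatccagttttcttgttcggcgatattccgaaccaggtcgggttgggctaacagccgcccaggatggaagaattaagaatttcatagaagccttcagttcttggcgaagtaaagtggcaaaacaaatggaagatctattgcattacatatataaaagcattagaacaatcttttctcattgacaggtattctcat
HSP42: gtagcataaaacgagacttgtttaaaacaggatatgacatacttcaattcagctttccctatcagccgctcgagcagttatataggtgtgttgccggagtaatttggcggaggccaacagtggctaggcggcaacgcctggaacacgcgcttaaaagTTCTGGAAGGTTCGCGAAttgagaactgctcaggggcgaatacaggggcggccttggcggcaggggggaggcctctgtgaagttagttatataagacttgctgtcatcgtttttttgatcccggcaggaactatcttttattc
CTT1: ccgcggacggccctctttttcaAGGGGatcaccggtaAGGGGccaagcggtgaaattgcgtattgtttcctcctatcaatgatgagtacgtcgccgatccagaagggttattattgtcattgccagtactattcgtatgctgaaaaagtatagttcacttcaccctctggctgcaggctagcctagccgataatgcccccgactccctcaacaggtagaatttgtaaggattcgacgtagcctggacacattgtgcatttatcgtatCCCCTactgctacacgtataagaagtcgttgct
PUT1: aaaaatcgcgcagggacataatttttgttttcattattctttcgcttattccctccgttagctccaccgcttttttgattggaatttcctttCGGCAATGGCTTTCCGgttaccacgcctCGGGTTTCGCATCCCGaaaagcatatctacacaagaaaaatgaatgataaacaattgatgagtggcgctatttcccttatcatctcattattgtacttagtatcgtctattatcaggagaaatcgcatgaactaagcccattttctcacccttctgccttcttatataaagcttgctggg
PUT2: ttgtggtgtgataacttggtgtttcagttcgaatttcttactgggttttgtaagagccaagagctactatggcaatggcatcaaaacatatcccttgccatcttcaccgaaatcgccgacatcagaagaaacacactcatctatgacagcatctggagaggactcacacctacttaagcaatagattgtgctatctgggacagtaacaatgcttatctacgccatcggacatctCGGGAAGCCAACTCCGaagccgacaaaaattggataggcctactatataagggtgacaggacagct
NOP58: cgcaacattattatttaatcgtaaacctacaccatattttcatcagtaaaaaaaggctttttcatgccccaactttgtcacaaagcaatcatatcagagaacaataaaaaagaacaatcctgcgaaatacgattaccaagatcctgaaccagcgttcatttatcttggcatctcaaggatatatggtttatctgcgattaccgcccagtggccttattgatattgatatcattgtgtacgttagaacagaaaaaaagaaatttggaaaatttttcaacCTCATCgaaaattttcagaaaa
Over the 5762 windows that could be read, 23.6% held a heat shock pair, 23.9% AGGGG, 2.0% the Put3 motif and 18.1% GATGAG. Of the windows of genes that rose 53.3% held AGGGG, and of those that fell 15.2% did. The PAC element was in 18.3% of the first and 41.7% of the second. A heat shock pair was in 28.4% and 25.4%, and the Put3 motif in 4.42% and 1.41%. Among the lists described next, 20 of 21 Hsf1 targets held a heat shock pair, 29 of 30 Msn2/Msn4 targets the stress response element, 2 of 3 proline use genes the Put3 motif, and 21 of 35 and 28 of 40 ribosome assembly genes the PAC element. These are matches of letters and not measured binding.

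Hsf1 chaperone genes rose in not5, by a small amount in every pair. Of 21 listed targets, 18 rose, 0 fell, and HSP60, HCH1 and HSP10 (log2 fold changes 0.10, 0.11 and 0.13) did not pass the test. The list's median log2 fold change was 0.25, against 0.0012 over all genes, and it was 0.21, 0.24, 0.20 and 0.36 in pairs 1 to 4. All 21 members were higher with AZC in 4 of 4 pairs. In the fit on all 16 libraries of flowcell 2, which gives both genotypes 1 estimate of the spread, 8 of the 21 were called.

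HSP82, the inducible Hsp90 on chromosome XVI (96496 to 98625, minus strand), was at 621, 1682, 998 and 1119 CPM in vehicle libraries 1 to 4 and at 797, 2081, 1281 and 1729.5 CPM in AZC libraries 1 to 4. Each AZC library was above its own vehicle, although the 2 groups overlapped, since vehicle 2 exceeded AZC 1 and AZC 3. The log2 fold change was 0.41 ± 0.05 (SE, n = 4 pairs, edgeR adjusted p = 0.0024). HSP42, a small heat shock protein that gathers misfolded proteins into granules, was at 193, 492, 343 and 388 CPM in vehicle and 237, 608, 422 and 539.7 CPM with AZC. Its log2 fold change was 0.34 ± 0.04 (adjusted p = 0.0011). BTN2, which sorts misfolded proteins into deposits, was at 215, 521, 347 and 391 CPM and then at 260.1, 659.6, 426 and 576 CPM, a log2 fold change of 0.37 ± 0.04 (adjusted p = 0.0024). For all 3 genes pair 4 had the largest change, and pair 4 is the pair with the high ribosomal RNA share; the part of that share in the change was not tested. With the ribosomal RNA records removed before scaling, 624 genes were called in all. That removal does not test how pair 4 came to differ. The calls of the 3 genes held when any 1 number was left out.

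The cytosolic Hsp70 gene SSA1 rose by 0.35 ± 0.06, the disaggregase HSP104 by 0.25 ± 0.04 and the inducible Hsp70 gene SSA4 by 0.18 ± 0.03 on the log2 scale (adjusted p = 0.0063, 0.0053 and 0.012). SSA1 and SSA2, and HSP82 and HSC82, are close copies, and how the counting split their reads is uncertain. HSP78, the disaggregase of mitochondria, rose by 0.25 ± 0.04 and MBF1, a transcription coactivator also linked to stalled ribosomes, by 0.32 ± 0.04. ROQ1, a regulator of ubiquitin-dependent quality control, rose by 0.28 ± 0.05. HSF1 itself was at 141, 155, 147 and 148 CPM in vehicle and 139, 153, 143 and 155 CPM with AZC. Its log2 fold change of −0.0033 (95% interval −0.07 to 0.06) did not pass the test (adjusted p = 0.96).

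Among 15 other chaperone genes, 5 rose and 0 fell, with a median log2 fold change of 0.08. HSP12, a membrane-associated stress protein, rose by 0.48 ± 0.10, the Hsp110 gene SSE2 by 0.29 ± 0.04 and the Hsp40 gene APJ1 by 0.24 ± 0.06 on the log2 scale. Without number 2 or number 4, 2 of the 15 were called, with APJ1 among those lost (adjusted p = 0.075 and 0.070), and HSP12 lost its call without number 3 (adjusted p = 0.23). The 16-library fit called 0 of the 15. Of 33 proteasome genes and their activator RPN4, RPN4 was the 1 that rose, from 477, 638, 534 and 567 CPM to 514, 684, 588 and 681 CPM (log2 0.15 ± 0.04, adjusted p = 0.024). It lost the call without number 1, 2 or 4 (adjusted p = 0.056, 0.051 and 0.087). The proteasome list's median log2 fold change was 0.03. Genes of the ER unfolded protein response gave 1 call in 18, OPI3, a phospholipid methyltransferase (0.17 ± 0.05, not called without number 2, 3 or 4), and the ubiquitin list 1 in 15, ROQ1. Over all genes tested 5.44% rose. The 16-library fit called 0 genes of the proteasome, ER and ubiquitin lists.

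**Figure D2:**
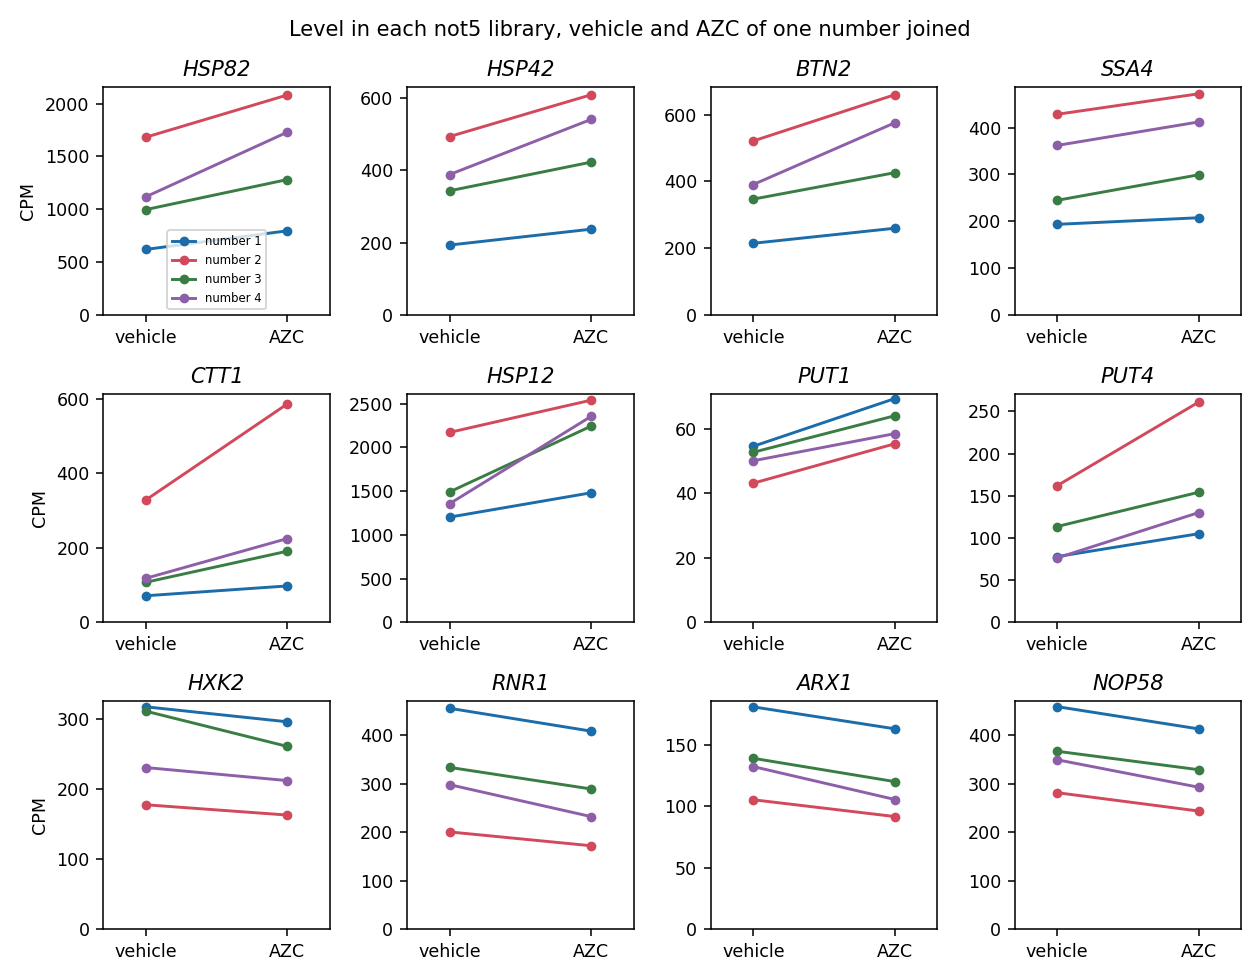
Level in CPM (y axis, from 0) of 12 genes in each not5 library, with the vehicle and AZC library of 1 number joined by a line. The chaperone, stress and proline genes rise along every line and HXK2, RNR1, ARX1 and NOP58 fall along every line, while the 4 numbers start from different levels, for HSP82 from 621 to 1682 CPM.

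General stress genes rose by about as much as the chaperones. Of 30 Msn2/Msn4 targets, 22 rose and 0 fell, with a median log2 fold change of 0.26 and pair medians of 0.19, 0.22, 0.23 and 0.38. In the 16-library fit 5 of the 30 were called. CTT1, the cytosolic catalase, was at 71.1, 328, 107 and 118 CPM in vehicle and at 97.5, 587, 191 and 225 CPM with AZC. Every AZC library exceeded its own vehicle, and vehicle 2 stood above AZC 1, AZC 3 and AZC 4. The log2 fold change was 0.77 ± 0.08 (adjusted p = 0.0083, and 0.061 without number 2). RTN2, a reticulon, rose by 0.66 ± 0.10 and ALD3, an aldehyde dehydrogenase, by 0.60 ± 0.08. RTN2 lost its call without number 2 or 3 (adjusted p = 0.16 and 0.081) and ALD3 without number 2 or 4 (0.067 and 0.060). HSP12 also belongs here. HSP26, a small heat shock protein gene on both lists, had a log2 fold change of 0.07 ± 0.06 and did not pass the test.

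Storage sugar genes gave 8 of 15 higher and 0 lower, with a median log2 fold change of 0.15. Most of the 15 are also on the Msn2/Msn4 list, including GPH1, TPS2 and GLC3, so the counts of these lists are not separate. GPH1, glycogen phosphorylase, rose by 0.29 ± 0.04, TPS2, trehalose phosphate phosphatase, by 0.26 ± 0.05 and GLC3, the glycogen branching enzyme, by 0.25 ± 0.03. The count was 3 without number 2, 5 without number 3 or 4 and 0 in the 16-library fit, and TPS2 lost its call without number 2 or 3. Of 16 Yap1 oxidative stress genes, AHP1, a thiol peroxidase (0.27 ± 0.05), CTA1, the peroxisomal catalase (0.15 ± 0.04), and GLR1, glutathione reductase (0.12 ± 0.03), rose and 0 fell. CTA1 lost its call without number 3 or 4, and GLR1 whichever number was left out. The 16-library fit called 0 of the 16 Yap1 genes. Over all genes tested in the main fit, 5.44% rose.

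Among called genes at 10 CPM or more, the largest increases were outside the chaperone list. FMP48, a putative kinase, was at 7.25, 38.2, 12.5 and 11.6 CPM in vehicle and at 9.90, 73.7, 22.6 and 23.8 CPM with AZC. The groups overlapped, and its log2 fold change was 0.84 ± 0.08 (adjusted p = 0.0011). GID10, a substrate receptor of the GID ubiquitin ligase, had 7.93, 22.3, 9.83 and 7.41 CPM in vehicle and 10.4, 46.5, 16.01 and 13.6 CPM with AZC (log2 0.78 ± 0.09). SPG4, a stationary phase gene (0.60 ± 0.07), BAG7 (0.57 ± 0.11), TKL2, a transketolase (0.56 ± 0.08), and RTC3 (0.54 ± 0.05) also rose. SPG4, BAG7 and TKL2 lost their calls without number 2 (adjusted p = 0.060, 0.19 and 0.13) and without number 3 (0.053, 0.15 and 0.072). The calls of FMP48, GID10 and RTC3 held without any 1 number.

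Of 3 proline use genes, 2 rose. PUT1, proline oxidase, the first enzyme of proline breakdown, was at 54.7, 43.2, 52.8 and 50.2 CPM in vehicle and at 69.5, 55.4, 64.2 and 58.6 CPM with AZC. The groups did not overlap, which held for 0.463% of genes tested in this direction and 0.257% in the other. The log2 fold change of PUT1 was 0.30 ± 0.04 (adjusted p = 0.0023). PUT2, the next enzyme, was at 415, 412, 430.2 and 397 CPM in vehicle and at 478, 476, 476 and 484 CPM with AZC, again without overlap (log2 0.21 ± 0.03, adjusted p = 0.0049). PUT3, their activator, had a log2 fold change of 0.0023 (95% interval −0.08 to 0.08) and did not pass the test. The calls of PUT1 and PUT2 held without any 1 number, and PUT2 also in the 16-library fit.

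PUT4, the high-affinity proline permease on chromosome XV (986899 to 988782, minus strand), was at 77.9, 162, 114 and 76.2 CPM in vehicle and at 105, 261, 154 and 130.04 CPM with AZC. All 4 pairs rose and the groups overlapped, with a log2 fold change of 0.58 ± 0.06 (adjusted p = 0.0028). GAP1, the general amino acid permease, which also takes up proline, had a log2 fold change of 0.25 ± 0.06. Its adjusted p was 0.047, and it lost the call without number 1, 2 or 4 (0.064, 0.067 and 0.19), under DESeq2, with library totals, with no low-count filter, with ribosomal RNA records removed and in the 16-library fit. AGP1, a broad amino acid permease, fell by 0.14 ± 0.03 (adjusted p = 0.013, and 0.062 without number 2). GNP1, another amino acid permease, had a value of −0.06 ± 0.04 and was not called. The proline synthesis genes PRO1, PRO2 and PRO3 had log2 fold changes of −0.03, −0.02 and 0.0008 and were not called, with 95% intervals of −0.10 to 0.04, −0.08 to 0.04 and −0.06 to 0.06.

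Genes for building ribosomes fell together. Of 35 genes of the small subunit processome, 30 fell and 0 rose, with a median log2 fold change of −0.14, and of 40 genes of large subunit assembly, 34 fell and 0 rose, with a median of −0.15. NOP58, a core protein of box C/D small nucleolar particles, was at 459, 282, 367 and 349 CPM in vehicle and at 413, 244, 329 and 293 CPM with AZC. Each pair fell while the groups overlapped, and the log2 fold change was −0.19 ± 0.03 (adjusted p = 0.0053). Its partner NOP56 fell by 0.20 ± 0.03 and NOC4, a small subunit factor, by 0.20 ± 0.04. ARX1, an export factor of the large subunit, fell by 0.22 ± 0.03, the GTPase NUG1 by 0.20 ± 0.03 and REI1, which acts in late cytoplasmic maturation and overlaps YBR266C, by 0.20 ± 0.04. The counts depended on numbers 2 and 4: without number 2, 9 of 35 and 7 of 40 were called lower, and without number 4, 10 and 14. REI1 lost its call in both cases (adjusted p = 0.069 and 0.060). In the 16-library fit 0 of either list were called, with medians of −0.15 and −0.16. The members' pair medians were −0.09, −0.16, −0.09 and −0.22 for the small subunit list in pairs 1 to 4, and −0.10, −0.18, −0.09 and −0.22 for the large subunit list.

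Cytosolic ribosomal protein genes gave fewer calls. Of 135 tested, 15 fell and 0 rose, where 4.86% of all genes tested fell, with a median log2 fold change of −0.08. The medians of pairs 1, 2 and 4 were −0.10, −0.15 and −0.13, and that of pair 3 was 0.05. Without number 3, 54 were called lower, and without number 1, 2 or 4 the counts were 2, 1 and 1. The 16-library fit called 0 of the 135. RPL26A was at 325, 256, 259.5 and 266 CPM in vehicle and at 290.4, 226, 236 and 239 CPM with AZC, a log2 fold change of −0.16 ± 0.03 (adjusted p = 0.0079). RPL13A and RPS0B fell by 0.15 ± 0.03 and 0.15 ± 0.04, and lost their calls without number 2 or 4, RPS0B also without number 1. Most of these genes have a near-identical second copy, and the split of reads between copies is uncertain.

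Of 28 genes for subunits and initiation factors of RNA polymerases I and III, 6 fell and 0 rose, among them RPA135, RPA49 and RPA190 of polymerase I (−0.19 ± 0.03, −0.19 ± 0.03 and −0.17 ± 0.03). Of 37 translation factors, 11 fell, with TEF4, an elongation factor subunit that overlaps the noncoding gene YNCK0009W, at −0.14 ± 0.03, GCD1, a subunit of eIF2B, at −0.14 ± 0.03 and YEF3, the fungal elongation factor 3, at −0.13 ± 0.03. The counts were 3 polymerase genes without number 2 or 4, and 2, 1, 6 and 0 translation factors without numbers 1 to 4. In the 16-library fit 0 genes of either list were called. Over all genes tested in the main fit, 4.86% fell. TEF4 and YEF3 lost their calls without number 1, 2 or 4, and GCD1 without number 4. The Hsp70s that bind nascent chains on the ribosome, SSB1, SSB2 and SSZ1, fell by 0.19 ± 0.04, 0.17 ± 0.03 and 0.11 ± 0.03, and the other 5 of the 8 ribosome-bound chaperone genes were not called. SSB1 and SSB2 are near-identical copies. SSZ1 lost its call whichever number was left out, and SSB2 without number 2 or 4.

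**Figure D3:**
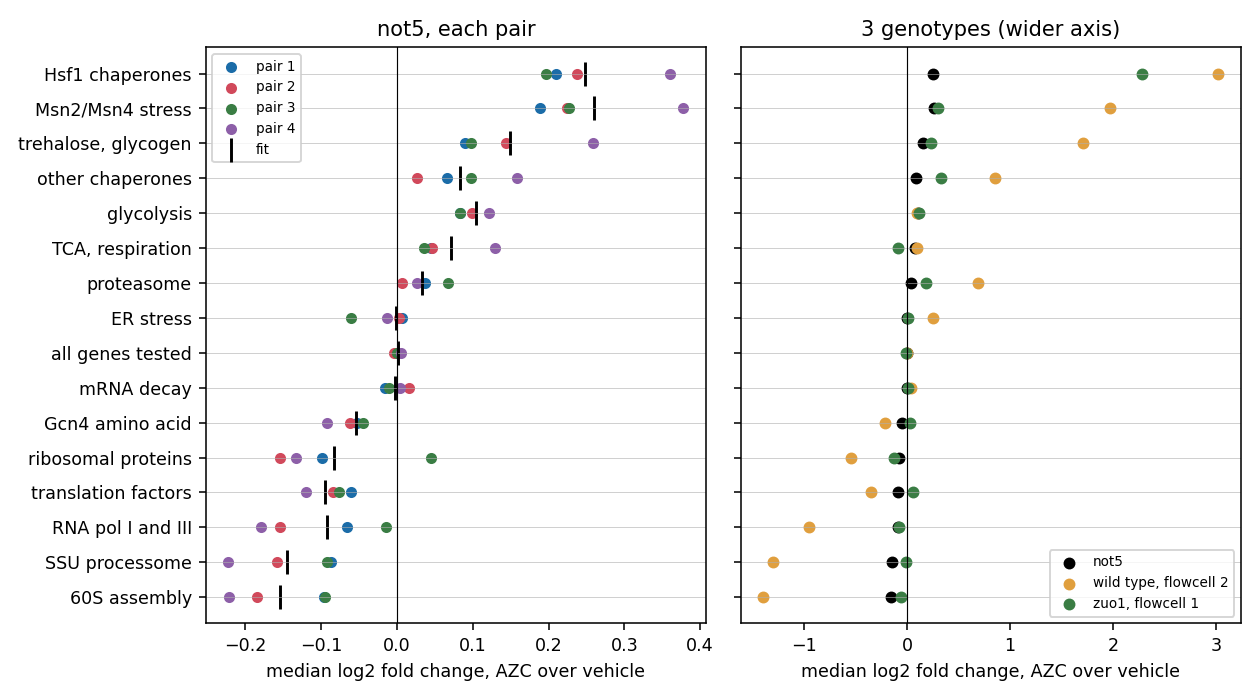
Median log2 fold change (x axis) of 15 gene lists and of all genes tested. The left panel gives the 4 not5 pairs as points and the fit as a bar, and the right panel gives not5, wild type of flowcell 2 and zuo1 of flowcell 1 on a wider axis, where the Hsf1 list stands at 0.25, 3.03 and 2.29.

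Of 8 tested Ccr4-Not genes 0 were called by edgeR and 0 by DESeq2, with 1 at an unadjusted p under 0.05 in edgeR, and their median log2 fold change was −0.03. CAF130 had the lowest value (−0.08 ± 0.03, adjusted p = 0.11). Of 26 mRNA decay genes, DCS1, the scavenger decapping enzyme, was the 1 that was called (0.16 ± 0.03, adjusted p = 0.010). The 16-library fit called 0 of the 26. Over all genes tested in the main fit, 5.44% rose and 4.86% fell. Of 17 genes of ribosome quality control, MBF1 rose and NEW1, a translation factor of the ABC family, fell by 0.11 ± 0.03. GCN4, the activator of amino acid synthesis, had a log2 fold change of −0.04 ± 0.03 and was not called, while 10 of 39 genes on the Gcn4 list fell and 0 rose, among them LEU9, ARO4 and ASN1 (−0.19 ± 0.04, −0.17 ± 0.03 and −0.15 ± 0.03). The count of lower genes was 6, 3 and 1 without number 1, 2 and 4, and that of higher genes 1, 0 and 2, so without number 4 more genes of the list were higher than lower. DESeq2 gave 2 higher and 12 lower, and the 16-library fit 1 higher and 0 lower. Among the genes named, ARO4 lost its call without number 4 and ASN1 without number 2 or 4. NEW1 lost its call without number 2, 3 or 4.

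Calls among the listed genes of glucose handling were of genes that rose, except HXK2. HXK1, the hexokinase made when glucose is scarce, rose by 0.34 ± 0.05, ADH2, the alcohol dehydrogenase of ethanol use, by 0.30 ± 0.04 and GLK1, glucokinase, which overlaps YCL042W, by 0.21 ± 0.05 on the log2 scale. HXK1 and GLK1 are also on the Msn2/Msn4 list. HXK2, the hexokinase of growth on glucose, was at 317, 177, 310.5 and 230.2 CPM in vehicle and at 295, 163, 260.3 and 212 CPM with AZC, a fall of 0.15 ± 0.03. In all, 8 of 22 genes of glycolysis and fermentation rose and 1 fell, with 3, 4 and 3 higher without numbers 1, 2 and 4 and 1 in the 16-library fit. Of 11 genes of hexose transport and glucose sensing 4 rose, including HXT7 (0.35 ± 0.05), HXT5 (0.27 ± 0.05) and HXT1 (0.26 ± 0.07). Of 41 genes of the citric acid cycle and respiration 4 rose, where 5.44% of all genes tested rose and 4.86% fell. Among the 4 were CYC7, an isoform of cytochrome c (0.37 ± 0.09), COX8 (0.20 ± 0.05) and QCR8 (0.15 ± 0.03). HXT1, CYC7, COX8 and QCR8 each lost the call without at least 3 of the 4 numbers, and GLK1 without number 1 or 4. The 16-library fit called 0 genes of the hexose and respiration lists.

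Among called genes at 10 CPM or more, CLB6 and RNR1 had the largest decreases. CLB6, an S phase cyclin, was at 35.9, 18.0, 31.3 and 28.1 CPM in vehicle and at 33.3, 13.3, 26.6 and 20.9 CPM with AZC (log2 −0.29 ± 0.06, adjusted p = 0.014, and 0.060 without number 4). RNR1, the large subunit of ribonucleotide reductase, was at 456, 201, 334 and 298 CPM and then at 409, 172, 289.5 and 233 CPM (log2 −0.24 ± 0.04, adjusted p = 0.0046). Pairs fell in both genes and the groups overlapped. UPA2 (−0.22 ± 0.04), OPT1, an oligopeptide transporter (−0.22 ± 0.04), TRM11, a tRNA methyltransferase subunit (−0.22 ± 0.04), RSA4, a large subunit assembly factor (−0.22 ± 0.05, not called without number 2), ROK1, a helicase of rRNA processing (−0.22 ± 0.04), and DBP2, a DEAD-box helicase (−0.21 ± 0.04), also fell. In the 16-library fit 1 gene in all was lower in not5, so at most 1 of the decreases named above kept its call. CLB6 was not called there. Of 19 genes of the iron list 2 fell and 0 rose, with a median log2 fold change of −0.03. Over all genes tested 4.86% fell. FET3, the ferroxidase of iron uptake, and its partner FTR1 fell by 0.21 ± 0.04 and 0.19 ± 0.04. Both lost the call without number 2 or 4, and the 16-library fit called 0 of the 19.

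The same test in wild type of flowcell 2 called 4100 genes (70.6%), 2054 higher and 2046 lower (35.4% and 35.2%), with 625 at 2-fold or more (10.8%). The comparison shares no library with not5. The difference between the 2 responses was tested in a fit over the 16 libraries and was called for 3802 of 5850 genes (65%), 2079 with a higher and 1723 with a lower change in not5, and for 532 at 2-fold or more (9.09%), 270 higher and 262 lower (4.62% and 4.48%). Without the replicate blocks 2881 were called. Flowcell and treatment are the same on both sides, while strain marker LEU2 moves with genotype and its part was not tested.

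On a common scale for the 16 libraries, SSA4 averaged 56.9 ± 10.5 CPM in wild-type vehicle and 12140.2 ± 2460.4 CPM in wild-type AZC (SD, n = 4), against 256 ± 88.2 and 289.6 ± 98.0 CPM in not5. The log2 response of not5 was lower by −7.55 ± 0.21 (SE, adjusted p = 1.24e-10). HSP82 went from 349.8 ± 15.4 to 8089 ± 718 CPM in wild type and from 919.6 ± 361 to 1226 ± 464 CPM in not5, a difference of −4.12 ± 0.11. HSP42 and BTN2 differed by −6.26 ± 0.13 and −5.79 ± 0.09. All 21 Hsf1 genes rose in wild type, with a median log2 fold change of 3.03, and all 21 had a lower response in not5. Before AZC the Hsf1 list stood higher in not5 than in wild type, by a median of 0.77 on the log2 scale of vehicle levels, without a test.

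The Msn2/Msn4 list rose in wild type for 30 of 30 genes (median 1.97), and all 30 had a lower response in not5. Its vehicle level in not5 was above that of wild type by a median log2 of 1.68. CTT1 stood at 19.3 ± 5.61 and 51.7 ± 15.3 CPM in wild type, below the not5 levels of 130 ± 96.2 and 229 ± 179 CPM, and its responses differed by −0.65 ± 0.10. All 35 and 40 ribosome assembly genes fell in wild type (medians −1.31 and −1.40), and in every case the change was more negative than in not5. Their vehicle levels in not5 were below those of wild type by medians of −1.02 and −1.22 on the log2 scale. NOP58 went from 945 ± 54.4 to 497 ± 31.6 CPM in wild type and from 304 ± 62.0 to 266 ± 59.7 CPM in not5. The level of wild type after AZC was thus above that of not5 before it. HPT1, FYV5, NOG2, GFD2 and RFU1 had the most positive differences (2.10 to 2.50), from wild-type log2 changes of −2.11 to −2.67. FYV5 and NOG2 overlap other genes.

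For proline the genotypes differed in both ways. PUT1 averaged 6.25 ± 1.66 CPM in wild-type vehicle and 16.7 ± 0.89 CPM with AZC (log2 1.47 ± 0.12), against 41.9 ± 4.35 and 51.6 ± 5.19 CPM in not5, and the responses differed by −1.13 ± 0.13 (adjusted p = 1.11e-05). PUT2 and PUT3 also responded less in not5, by −0.82 ± 0.05 and −0.55 ± 0.08. PUT4 was at 6.89 ± 0.54 and 7.24 ± 1.08 CPM in wild type, where it was not called (log2 0.10 ± 0.10), and at 89.4 ± 33.1 and 135 ± 57.4 CPM in not5. Its response was higher in not5 by 0.52 ± 0.11 (adjusted p = 0.0016). PRO1 fell in wild type (−0.81 ± 0.07) and not in not5, a difference of 0.81 ± 0.08.

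**Figure D4:**
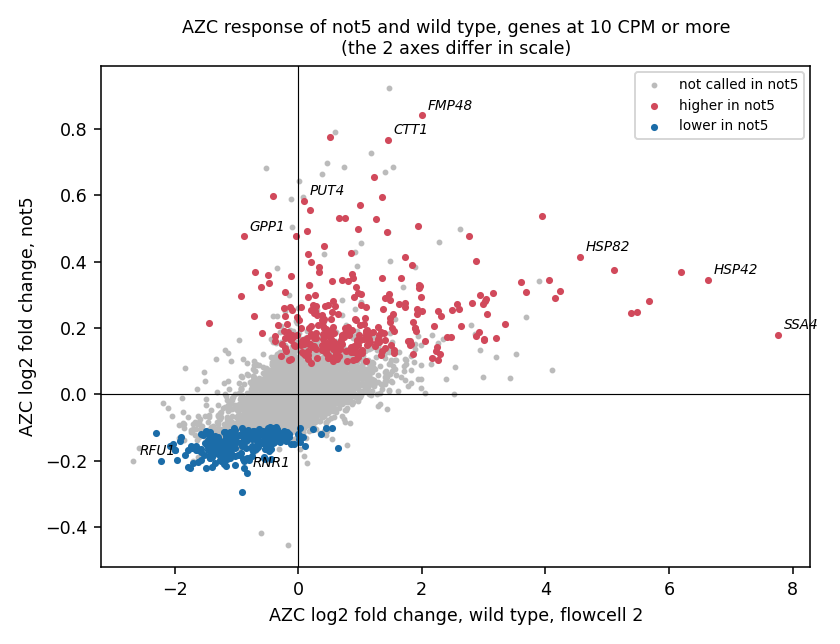
AZC log2 fold change in not5 (y axis) against wild type of flowcell 2 (x axis, a wider scale) for the 5223 genes averaging 10 CPM or more. Points called in not5 are coloured. SSA4 lies at 7.77 in wild type and 0.18 in not5, and GPP1 lies at −0.88 and 0.48.

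Most genes called in not5 moved the same way in wild type. Of 316 that rose in not5 and were tested in both, 253 also rose in wild type, which is 80.06% of the not5 list and 12.33% of the wild-type list, where 35.44% of the 5790 genes tested in both rose. Another 22 fell in wild type and 41 were not called. Of 283 that fell in not5, 269 fell in wild type (95.05% and 13.17%, against 35.27%), 6 rose and 8 were not called. In wild type 5.82% of genes rose and 4.94% fell 2-fold or more. Of the 336 that so rose and were tested in not5, 122 rose and 0 fell in not5, and their median log2 change was 1.43 in wild type and 0.13 in not5. Of the 286 that fell 2-fold or more, 130 fell and 1 rose in not5, with medians of −1.31 and −0.12. Across 5223 genes, the not5 change regressed on the wild-type change with a slope of 0.083 (Pearson's r = 0.57). The slopes of the 4 pairs were 0.06, 0.08, 0.06 and 0.13. Genes are not independent replicates, and these are descriptions.

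The 28 genes called in opposite directions were picked out after their values were seen. GPP1, a glycerol phosphatase, was at 352, 670.4, 412 and 331 CPM in vehicle and at 401, 1114, 575 and 468 CPM with AZC in not5 (log2 0.48 ± 0.08), and changed by −0.88 in wild type. SNO1 and SNZ1, neighbouring genes of vitamin B6 synthesis, rose by 0.37 ± 0.05 and 0.36 ± 0.05 in not5 and fell by 0.70 and 0.49 in wild type. ADH2 rose by 0.30 in not5 and fell by 0.92 in wild type, and FUR4, the uracil permease, rose by 0.21 and fell by 1.44. DPB2, a DNA polymerase epsilon subunit, fell by 0.16 in not5 and rose by 0.64 in wild type. GPP1 lost its not5 call without number 3 or 4 (adjusted p = 0.15 and 0.11) and DPB2 without number 2, 3 or 4 (0.051, 0.054 and 0.069). Of the 28 genes, 7 kept the call without any 1 number, among them SNO1, SNZ1, ADH2 and FUR4, and 5 were called in the 16-library fit, which lost FUR4 and DPB2.

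zuo1 cells lack a ribosome-bound Hsp40 and were sequenced on flowcell 1 at lower depth, so their values are given beside those of not5 without a test of the difference. The same form of fit called 275 of 5752 genes (4.78%), 203 higher and 72 lower (3.53% and 1.25%), with 48 at 2-fold or more, all higher (0.834%). Leaving out 1 number gave 144 to 802. The balance of directions turned with library totals alone (178 higher, 301 lower) and without number 2 (343 higher, 459 lower). The Hsf1 list rose for 21 of 21 genes there, with a median of 2.29, against 0.25 in not5. HSP82 changed by 4.57 ± 0.14 in zuo1 and BTN2 by 5.35 ± 0.11. The Msn2/Msn4 list had a median of 0.30, with 11 of 30 higher, near the 0.26 of not5. For the small and large subunit lists the zuo1 medians were −0.02 and −0.06. PUT1 rose by 1.07 ± 0.11 in zuo1, and PUT4 had 0.04 ± 0.14.

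The replicate number was the largest source of variation in not5. An F test of the number called 3582 genes (61.5%), against 73 (1.26%) in wild type of flowcell 2 and 329 (5.72%) in zuo1. Over 5224 genes of 10 CPM or more, number took 86% of the summed squares in not5, AZC 8.64% and the rest 5.34%. In wild type these shares were 6.96%, 89.9% and 3.15%. The count without number 1 was 2367. The labels do not say whether a number stands for a day, a colony or a culture.

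Of the 10 genes with the widest effect of number, 6 were called for AZC and 4, PHM7, FMP45, HBT1 and DIP5, were not. PHM7 was at 27.8, 221, 64.7 and 32.8 CPM in vehicle libraries 1 to 4, FMP45, a cell cortex protein, at 56.0, 407, 134 and 114 CPM, and HBT1 at 134, 654, 254 and 213 CPM. All 3 were higher with AZC in 4 of 4 pairs but were not called (log2 0.92 ± 0.31, 0.79 ± 0.17 and 0.70 ± 0.19, adjusted p = 0.19, 0.080 and 0.13). DIP5, an acidic amino acid permease, was at 55.2, 251, 101 and 62.3 CPM in vehicle and was not called either (0.59 ± 0.15, adjusted p = 0.11). Vehicle 2 was the highest vehicle library for all 4 genes and vehicle 1 the lowest. The Msn2/Msn4 list stood at a median of −0.55, 0.34, −0.18 and −0.17 on the log2 scale in vehicle libraries 1 to 4 relative to each gene's mean over the 8 libraries, and the Hsf1 list at −0.53, 0.18, −0.12 and −0.03. The small subunit list ran the other way, at 0.39, −0.23, 0.07 and 0.04. Vehicle 2 without AZC was thus above AZC 1, AZC 3 and AZC 4 for the Msn2/Msn4 list, whose medians were −0.36, 0.06 and 0.25.

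Across 5224 genes, the difference between vehicle 2 and vehicle 1 correlated with the mean AZC change of pairs 3 and 4 (Pearson's r = 0.71), which share no library with it. It also correlated with the wild-type AZC response (r = 0.62, 5223 genes). AZC changes of single pairs correlated with one another at r = 0.43 to 0.61. These are descriptions across genes of the same libraries. Vehicles 1 and 2 are the vehicle libraries furthest apart on PC1 (scores −16.4 and 11.6), and no other contrast of vehicles is given. PC1 was fitted to vehicle and AZC libraries together and rose with AZC in every pair. A positive correlation thus comes in part with the choice of these 2 vehicles, and is no separate support. Whether a difference between cultures in growth or density had a part in the AZC change of any pair was not tested.

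**Figure D5:**
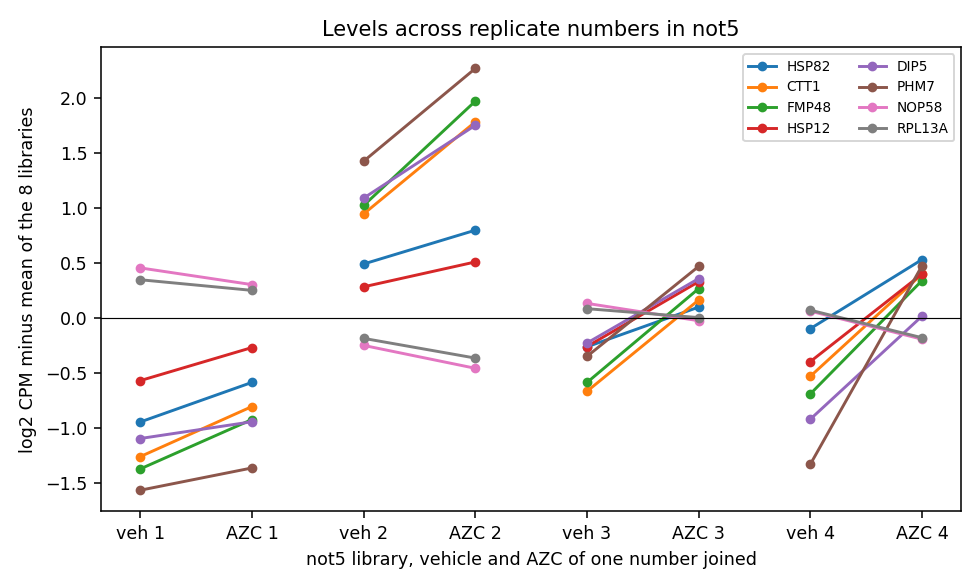
Levels of 8 genes in the 8 not5 libraries (y axis, log2 CPM minus each gene's mean over the libraries; x axis, library), with vehicle and AZC of 1 number joined. The distance between numbers exceeds the step from vehicle to AZC for most genes, and PHM7 spans the widest range, while NOP58 and RPL13A run opposite to the others.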

How the data were processed

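Poly(A) RNA of 32 yeast libraries was sequenced. The deposited values are expected counts (estimated counts per transcript) from the authors' own quantification, with Salmon 1.10.2, FastQC 0.12.1 and build R64 named, per the submitters' processing notes. Of the values 79.1% were not whole, and they were rounded here. All 6085 records matched the RefSeq R64 annotation (5962 protein-coding), 1 under another accession version; 281 overlap another gene. The main test was edgeR 4.0.16 in R 4.3.3 (quasi-likelihood, robust, TMM, filterByExpr) on the 8 not5 libraries, with replicate number and treatment as terms. Benjamini-Hochberg adjustment was over all genes tested, at 0.05. CPM of single genes are TMM-scaled, and the sums of cell type markers are scaled by library totals alone. Wild type of flowcell 2 and zuo1 were fitted alike, and the difference from wild type in 16 libraries. Standard errors come from the log2 fold change and its F value. Scripts were tested on simulated data. Alternatives used DESeq2 1.42.0, limma 3.58.1, other scalings and filters, and left out each number.

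Numbers were taken as pairs because the comparison was defined with the replicate number as a block. In these same data, the deviations of same-numbered libraries from their group means correlated at r = 0.80, 0.81, 0.19 and 0.51 for numbers 1 to 4. The labels give the number but no shared source, and vehicle 3 correlated better with AZC 1 (0.24). Named genes were a fixed set of proline, chaperone and marker genes, the 10 largest changes in each direction at 10 CPM or more, up to 3 called members of each list in each direction, the 5 largest differences from wild type in each direction and the 10 widest number effects. The members and lists were chosen with earlier results of these data known.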

Additional observations from a re-analysis of the deposited data

Results flagged for a closer look

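Values are flagged when the highest or lowest of 4 pairs lies far from the other 3 for its group's range, which chance gives in about 1 in 20 groups; 110 named genes were looked at and 9 were flagged. Pair 4 had the largest log2 change in HSP42 (0.477), HSP82 (0.629), HSF1 (0.0704), RTN2 (1.03) and RTC3 (0.746), and the most negative in TRM11 (−0.379) and SSZ1 (−0.183). Pair 3 had the most negative in HXK2 (−0.254) and pair 1 the smallest in UGA1 (0.0715), a gene of GABA breakdown. Number 4 also stood apart in its ribosomal RNA share, 14.9% in vehicle and 13.1% in AZC.

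The AZC response differed between not5 and wild type, by the test of the difference, for 3802 genes. Among the named genes the log2 differences, not5 minus wild type, were −7.55 for SSA4, −6.26 for HSP42, −5.79 for BTN2, −5.11 for HSP104, −4.12 for HSP82, −1.63 for RPN4 and −0.571 for HSF1. For the proline genes they were −1.13 for PUT1, −0.823 for PUT2, −0.545 for PUT3, 0.516 for PUT4 and 0.81 for PRO1. For GNP1, AGP1 and GAP1 they were 0.429, 0.286 and −0.258, and for GCN4 0.566.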

How the results depend on the processing

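The 600 calls in not5 became 0 with no replicate block, 76 (75 higher, 1 lower) in the 16-library fit, and 238 to 467 when a number was left out. Of the 238 and 242 genes called without number 2 and number 4, 218 and 219 were among the 600. Other scalings, filters, removal of ribosomal RNA records, limma-voom and DESeq2 gave 607 to 765. Of 94 named genes called, 93 stayed called with DESeq2's size factors, 46 in all 4 fits that left out a number, 15 in the 16-library fit and 0 with no replicate block; none of the 94 changed direction in any fit. The count at 2-fold or more was 0, and 1 without a low-count filter (ADF1), with DESeq2 (GAL4) and without number 1 or number 3 (SIP18), so 0 to 1 over the numbers left out. ADF1 and GAL4 had log2 values of −9.18 and 5.99 there, outside the main fit's range of −1.136 to 2.085. Neither was among the 600. The replicate number effect ranged from 2367 to 3678 genes when a number was left out. The zuo1 count of 275 was 126 with no replicate block, 479 with library totals (178 higher, 301 lower), and 144 to 802 without 1 number; number 2 gave 802 (343 higher, 459 lower). The cause of these shifts was not tested. The median log2 change of all genes was 0.0012 with the main scaling and −0.0025 with DESeq2's size factors. Depth was high in all 8 not5 libraries, and the number of pairs limits the precision. Counting intervals do not cover the spread between cultures.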

Other observations

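Of 17 genes of purine and GTP synthesis, 5 fell and 0 rose in not5, among them IMD4, which overlaps YNCM0005C, and IMD3, close copies of the IMP dehydrogenase gene (−0.20 ± 0.03 and −0.20 ± 0.03), and 2 were called without number 2 or number 4 and 0 in the 16-library fit. The CTP synthase gene URA7, on the same list, fell by 0.17 ± 0.04 and was not called without number 1, 2 or 4. Over all genes tested 4.86% fell. MIS1, the mitochondrial tetrahydrofolate synthase, fell by 0.18 ± 0.03. ROX1, the repressor of hypoxic genes, was at 187, 223, 233 and 163 CPM in vehicle and at 236, 255, 267 and 248 CPM with AZC (0.33 ± 0.07, adjusted p = 0.037), and it lost the call without number 1, 2 or 3. Of 10 histone genes 0 were called by edgeR and 0 by DESeq2, with 1 at an unadjusted p under 0.05 in edgeR and a median log2 change of −0.0095. Of 12 drug resistance genes 0 were called by edgeR and 1 lower by DESeq2, with 2 at an unadjusted p under 0.05 in edgeR.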
